A study of Mus musculus with 6 samples.

Results

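The genes described here encode proteins of the mitochondrial ribosome, and they were taken from a comparison of whole dorsal skin of mice given DPCP (diphenylcyclopropenone, which sensitizes skin on contact and causes allergic inflammation) with control skin on day 2, with 3 libraries in each group. Members were chosen by name and by total count, not by a difference between groups: they were the protein-coding rows of the deposited count table whose symbol begins with Mrpl or Mrps followed by a digit and that held at least 10 counts over the 6 libraries. The gene family itself was picked with earlier results of these data known. Of 55487 rows, 78 protein-coding rows had such a symbol and 77 reached 10 counts, 48 named for the large subunit (Mrpl) and 29 for the small subunit (Mrps). The labels give no strain, allele, age or sex, give no treatment of the control skin, and do not tie the samples of a group to separate animals. The p-values hence describe only how far these samples spread, and that spread may be technical.

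Mitochondria carry their own ribosome, which translates the few proteins encoded on mitochondrial DNA, all of them subunits of the respiratory chain or ATP synthase. Its RNAs come from mitochondrial DNA, but every one of its proteins is encoded in the nucleus, made in the cytosol and imported. The small subunit decodes the messenger RNA, and the large subunit joins amino acids and releases the growing chain beside the inner membrane. Some of the proteins descend from those of the bacterial ribosome and others were added in the mitochondrial lineage. In whole skin their transcripts come from keratinocytes, fibroblasts, immune cells and the thin muscle layer alike.

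The threshold of 10 counts separated the members by a wide margin. The member with the fewest counts, Mrps34, held 1326 over the 6 libraries, followed by Mrps6 with 1700, and the member with the most, Mrpl12, held 13566. The row left out, Mrpl53, had 0 counts. Of its 790 exon bases, 695 were shared with Ccdc142os and Gm42688, and reads in shared bases were not counted, so its 0 is not a measure of expression. Mrps34 shared 77.8% of its bases with Mapk8ip3 and Nme3 in the same way. In all, 31 of the 77 members overlapped another gene by 1 exon base or more, and their levels are uncertain to that extent. Among those named below were Mrps18b (30.5% of its bases), Mrpl47 (24.2%), Mrps27 (24.2%) and Mrps7 (11.9%). Another 5 rows with matching symbols were processed pseudogenes and were not members. All 77 members passed the filter on low counts.

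In the promoters of these genes, sites of a few transcription factors were sought and their share set beside that in promoters at large, with no test. RefSeq windows of 250 bases before to 50 bases after a start (GRCm38.p6) were matched for 68 of the 77 members, giving 74 windows. The core site of ETS transcription factors, CCGGAAG, sought on both strands, was in 25 of the 74 windows (33.8%), against 11.6% of 21262 windows of protein-coding genes and 8.86% of all 32851 windows. GABP, an ETS factor also called nuclear respiratory factor NRF-2, is known for binding such sites at genes of respiration. The site of YY1, AAGATGGC, was in 12 windows (16.2%), against 3.05% of protein-coding windows. The palindromic site of NRF1 (10 letters) was in 3 windows (4.05%, against 1.33%), and the E-box CACGTG bound by Myc was in 7 (9.46%, against 7.84%). GGGCGG, the GC box, was in 52.7% and CCAAT in 39.2%, against 46.2% and 38.2%. Windows of 1 gene can overlap, and a match is a description of letters, not evidence of binding.

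The stretches below, from RefSeq, run from 170 bases before the start to 30 bases from it, and capitals mark the ETS and YY1 letters. Mrps27 (chr13:99344616-99344815, plus strand) is shown because it held both sites, and Mrps22 (chr9:98601650-98601849, minus strand) and Mrpl33 (chr5:31613781-31613980, plus strand) because they were among the largest increases and held the ETS site. Mrpl12 (chr11:120484467-120484666, plus strand) is shown because it rose most and held neither in its window. Mrpl28, Mrps25, Mrps6 and Mrpl20, which came next in fold change, also held neither. Mrps12, called higher, and Mrps18a, not called, held both sites as Mrps27 did.
Mrps27: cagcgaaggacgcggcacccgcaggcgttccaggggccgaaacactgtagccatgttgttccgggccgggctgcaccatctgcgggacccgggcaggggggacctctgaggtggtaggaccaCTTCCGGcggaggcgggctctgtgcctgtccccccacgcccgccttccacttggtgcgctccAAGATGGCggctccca
Mrps22: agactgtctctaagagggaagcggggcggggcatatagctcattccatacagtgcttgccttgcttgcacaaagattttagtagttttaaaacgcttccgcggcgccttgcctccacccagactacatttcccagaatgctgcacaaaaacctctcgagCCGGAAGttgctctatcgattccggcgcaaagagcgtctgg
Mrpl33: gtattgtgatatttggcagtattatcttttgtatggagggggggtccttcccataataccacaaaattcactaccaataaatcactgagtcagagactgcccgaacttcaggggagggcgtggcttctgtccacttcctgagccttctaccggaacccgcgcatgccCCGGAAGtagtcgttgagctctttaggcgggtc
Mrpl12: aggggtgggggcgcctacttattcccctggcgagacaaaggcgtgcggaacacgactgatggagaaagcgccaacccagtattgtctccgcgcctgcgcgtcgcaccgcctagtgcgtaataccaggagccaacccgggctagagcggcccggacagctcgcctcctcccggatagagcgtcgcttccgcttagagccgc

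The ETS letters were in windows of 17 of the 37 matched genes called higher in DPCP skin and of 8 of the 31 matched genes not called. No test was made of that split.

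The libraries held 28346992 to 38846787 counts. The members together took 0.221%, 0.210% and 0.213% of all counts in the 3 control libraries and 0.253%, 0.251% and 0.265% in the 3 DPCP libraries, so the groups did not overlap. Keratins marked the tissue as skin. The 5 keratinocyte markers (Krt5, Krt14, Krt1, Krt10, Trp63) summed to 17517 to 22647 CPM (counts per 1000000, scaled by TMM) in control and 25426 to 29116 CPM in DPCP libraries, but moved in both directions: Krt14, of basal cells, was called higher (log2 1.87), Krt10 and Krt1, of the layers above, lower (-2.54 and -0.75), and their median was -0.16. The makeup of the tissue moved with treatment. The 5 proliferation markers (Mki67, Top2a, Cdk1, Ccnb1, Birc5) summed to 296 to 329 CPM in control and 756 to 832 CPM in DPCP libraries, and all 5 were called higher. All 4 neutrophil markers were called higher, from a sum of 15.7 to 23.2 CPM to 448 to 1189 CPM, and all 6 skeletal muscle markers were called lower, from 10677 to 13138 CPM to 2786 to 5656 CPM. Of 4 macrophage markers 2 were called higher, from 611 to 1014 CPM to 1322 to 2170 CPM in sum, and of 3 endothelial markers 2 were, from 131 to 159 CPM to 252 to 313 CPM. Of 5 fibroblast markers 2 were called higher (1 without control replicate 1, control replicate 3 or DPCP replicate 2, and 3 without control replicate 2), and of 5 adipocyte markers 1 was called higher and 1 lower. Their part in the results on members was not tested, and in bulk tissue a change in the share of a cell type cannot be told apart from a change in RNA per cell.

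Genes of the mitochondrial ribosome were higher in DPCP skin as a broad, small shift. Of the 77 members, 40 were called higher and 0 lower (edgeR quasi-likelihood F-test, Benjamini-Hochberg adjusted p under 0.05 over 18259 genes), and 37 were not called. Across all genes tested, 22.8% were called higher and 23.3% lower, so the members were called higher at 51.9%. DESeq2 also called 40 members higher and 0 lower, where it called 23.6% of all genes higher and 22.7% lower. At an unadjusted p under 0.05 edgeR had 51 members higher and 0 lower. The share of all genes at that unadjusted threshold was not worked out, here or for the lists below. The log2 fold change was positive in 73 members and negative in 4 (Mrpl24, Mrpl44, Mrps31 and Mrps36), with a median of 0.30, quartiles of 0.20 and 0.44 and a range of -0.14 to 0.83, while the median of all genes tested was -0.01. In 56 members every DPCP library was above every control library and in 1 every DPCP library was below, where all genes gave 28.6% and 29.4%. None reached 2-fold, which 1441 of the genes called higher did, and 9 were at least 1.5-fold higher. The median coefficient of variation of the members between replicates was 6.78% in control and 7.02% in DPCP libraries, against 10.9% and 12.1% over all genes tested. Their median standard error was 0.098, against 0.148. Every member held 1326 counts or more, and this comparison with all genes was not matched for count.

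**Figure D1:**
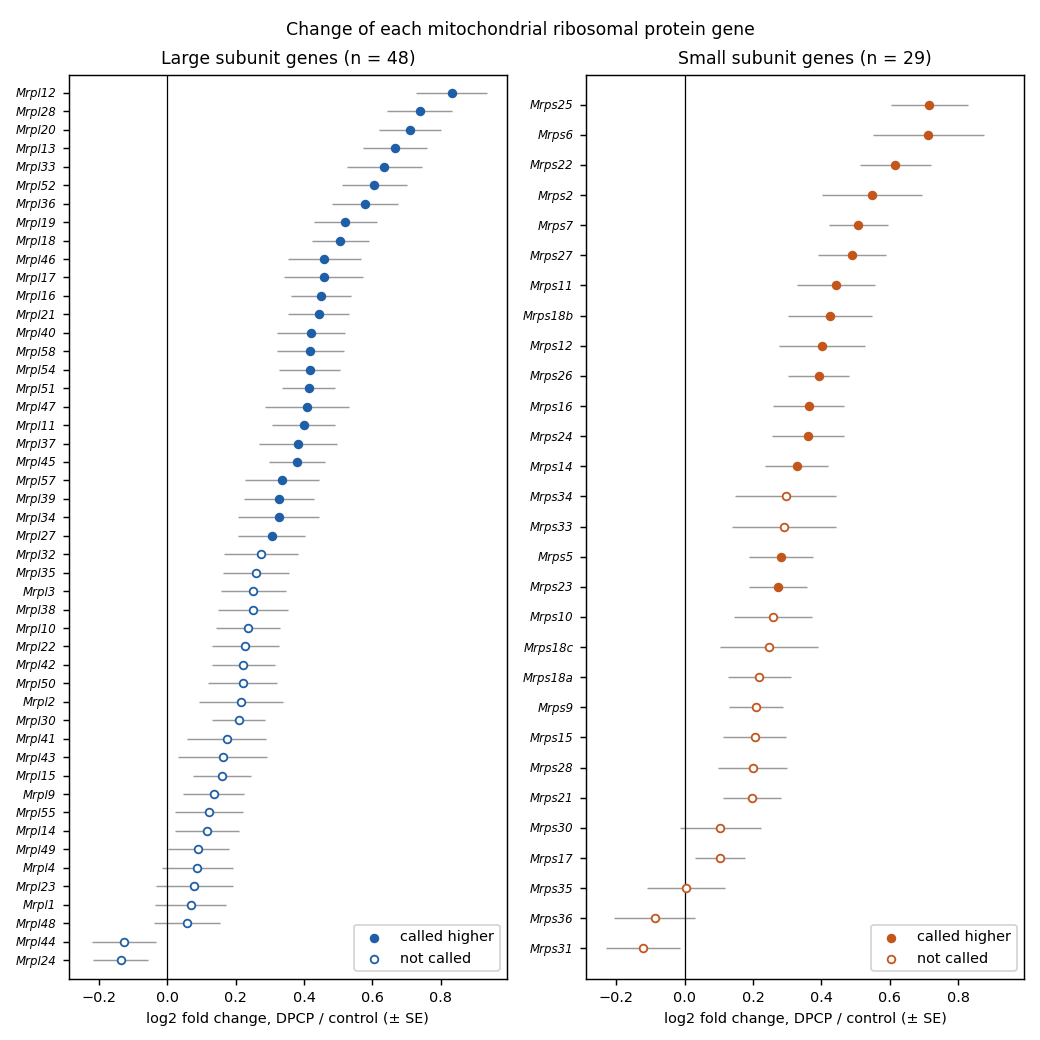
Log2 fold change of DPCP over control skin for each of the 77 members, with its standard error as a line, sorted within the large (left, 48 genes) and small (right, 29 genes) subunit. Filled points were called higher (25 large, 15 small), open points were not called, and 2 members of each subunit lie below 0.

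The 2 subunits moved by like amounts. Of the 48 large subunit genes 25 were called higher and 0 lower, with a median log2 fold change of 0.32 (quartiles 0.17 and 0.44), and of the 29 small subunit genes 15 were called higher and 0 lower, with a median of 0.29 (quartiles 0.21 and 0.43). The mean log2 RPKM (CPM per kilobase of the deposited exon length) over large subunit genes was 3.54, 3.44 and 3.54 in control and 3.78, 3.85 and 3.85 in DPCP libraries. For the small subunit it was 2.98, 2.94 and 2.98 in control and 3.22, 3.30 and 3.30 in DPCP libraries. Every DPCP library lay above every control library for both subunits. The large-minus-small difference in level was 0.57, 0.51 and 0.56 in control and 0.56, 0.55 and 0.56 in DPCP libraries. These ranges overlapped, and the group means differed by 0.01 (control 0.54 ± 0.03, DPCP 0.56 ± 0.01; SD, n = 3). The count of small subunit calls rested on single libraries more than that of the large subunit. It fell to 9 without control replicate 3 and to 9 without DPCP replicate 2, while the large subunit had 21 to 22 calls without any 1 library. Among genes sharing no exon base with another, 7 of 18 small and 14 of 28 large subunit genes were called higher, with medians of 0.24 and 0.30.

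**Figure D2:**
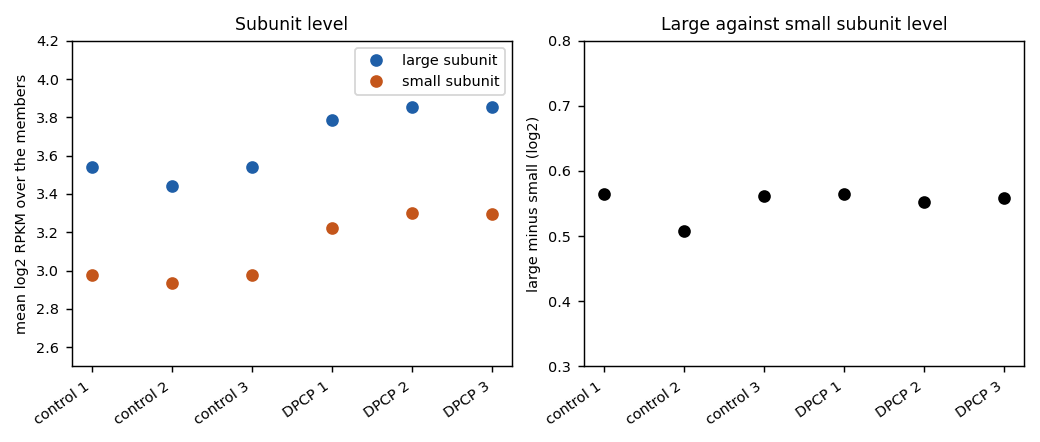
Left, mean log2 RPKM over the 48 large and 29 small subunit genes in each library; right, the large-minus-small difference in each library. Both subunits are higher in the 3 DPCP libraries, and the difference stays between 0.51 and 0.57.

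Names and structure do not match for 3 members. Mrps18a and Mrps30 are known from structures of the mammalian mitoribosome as large subunit proteins, and Mrps36 is known as a part of the oxoglutarate dehydrogenase complex and not of the ribosome. Assigned by structure, 25 of 50 large subunit genes (median 0.29) and 15 of 26 small subunit genes (median 0.31) were called higher. Mrps36 gave 18.2, 19.4 and 19.0 CPM in control and 19.6, 18.5 and 15.2 CPM in DPCP libraries. Its groups overlapped and it was not called (log2 fold change -0.09 ± 0.12, SE; edgeR adjusted p = 0.575). Among the other 76, genes with a bacterial homologue and genes specific to mitochondria gave like counts, 24 of 47 (median 0.28) and 16 of 29 (median 0.33). Mrps18b was counted as specific to mitochondria, although its paralogues Mrps18a and Mrps18c were counted with the bacterial homologues.

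Mrpl12, whose protein forms the flexible stalk that recruits translation factors and is also known to bind the mitochondrial RNA polymerase, changed most. It measured 51.8, 46.6 and 50.3 CPM in control and 84.0, 80.4 and 100.2 CPM in DPCP libraries. The groups were far apart relative to their spread, and the rise was 1.78-fold (log2 0.83 ± 0.10, SE; edgeR adjusted p = 0.000394). The 2 other proteins of the stalk and its base moved less. Mrpl11 rose (24.0, 23.1 and 25.4 CPM to 29.3, 32.6 and 33.6 CPM; log2 0.40). Mrpl10, the protein that holds the Mrpl12 copies, gave 31.8, 28.6 and 34.3 CPM in control and 37.2, 35.8 and 38.6 CPM in DPCP libraries. All 3 DPCP libraries were above the controls, but the difference was not called (log2 0.24, edgeR adjusted p = 0.0687).

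The next increases in the large subunit were in genes for homologues of bacterial ribosomal proteins. Mrpl28 measured 32.6, 35.9 and 33.4 CPM in control and 53.9, 53.4 and 62.7 CPM in DPCP libraries (log2 0.74 ± 0.095, SE; edgeR adjusted p = 0.000456). Mrpl20, known in bacteria for an early step of large subunit assembly, measured 40.7, 35.3 and 39.8 CPM in control and 62.4, 67.0 and 60.2 CPM in DPCP libraries (log2 0.71). Both were without overlap between groups. Mrpl13 went from 28.4, 26.0 and 24.98 CPM to 38.7, 43.5 and 43.8 CPM (log2 0.67), and Mrpl33 from 21.3, 20.3 and 19.3 CPM to 29.2, 36.0 and 29.4 CPM (log2 0.64). These 5 large subunit genes stayed called without each library in turn, with the log2 fold change of Mrpl12 between 0.74 and 0.89.

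**Figure D3:**
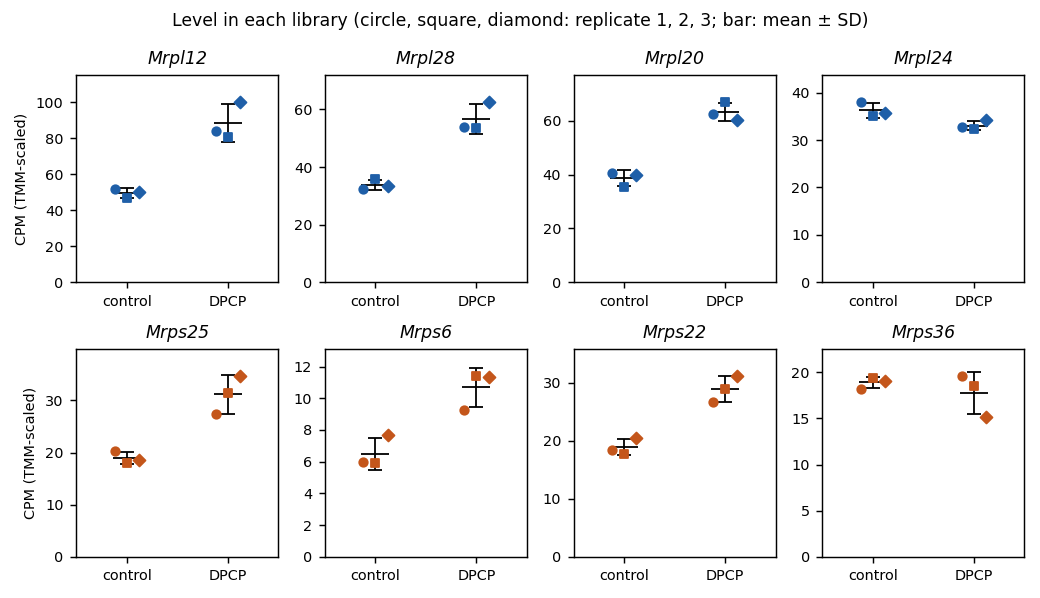
CPM in each library for Mrpl12, Mrpl28, Mrpl20 and Mrpl24 of the large subunit (top) and Mrps25, Mrps6, Mrps22 and Mrps36 (bottom), with bars for the mean and SD of 3 libraries and axes that start at 0. The groups are apart in the first 3 panels of each row, Mrpl24 is lower in every DPCP library without being called, and Mrps36 overlaps.

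Mrpl45, whose protein sits at the tunnel exit and faces the membrane, rose from 28.1, 29.3 and 31.1 CPM to 37.9, 38.98 and 38.3 CPM (log2 0.38 ± 0.082, SE; edgeR adjusted p = 0.00563). Mrpl23 and Mrpl24, homologues of bacterial proteins of the exit region, were not called. Mrpl23 gave 29.6, 26.5 and 26.0 CPM in control and 25.1, 29.6 and 31.9 CPM in DPCP libraries, with overlap (log2 0.08). Mrpl24 was the lowest of all members in fold change and the only one with every DPCP library below every control library, at 38.1, 35.02 and 35.7 CPM against 32.6, 32.2 and 34.1 CPM (log2 -0.14 ± 0.081, SE; edgeR adjusted p = 0.203). It shared 26.3% of its bases with Rrnad1.

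Other large subunit genes named for their roles fell on both sides of the threshold. Mrpl58, a peptidyl-tRNA hydrolase built into the subunit and known to free stalled chains, rose from 18.9, 17.7 and 18.8 CPM to 22.6, 26.2 and 25.2 CPM (log2 0.42). Mrpl44, which carries a ribonuclease III fold, gave 24.6, 27.0 and 27.4 CPM against 23.6, 23.2 and 25.6 CPM, with overlap (log2 -0.13; edgeR adjusted p = 0.295). Mrpl3, which lies near the catalytic centre, had all DPCP libraries above the controls at a log2 fold change of 0.25 and was not called (edgeR adjusted p = 0.0561). Mrpl41 (log2 0.17), Mrpl1 of the stalk on the other side of the subunit (0.07) and Mrpl48 (0.06) overlapped between groups.

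In the small subunit, Mrps25 measured 20.3, 18.03 and 18.6 CPM in control and 27.4, 31.4 and 34.7 CPM in DPCP libraries (log2 0.71 ± 0.11, SE; edgeR adjusted p = 0.00122). It shared 69.8% of its bases with Nr2c2, so its level is uncertain. Mrps6 had the fewest reads of the risers and the widest error, at 5.96, 5.90 and 7.67 CPM in control and 9.27, 11.4 and 11.4 CPM in DPCP libraries (log2 0.71 ± 0.16, SE). It shared 19.9% of its bases with Slc5a3 and Gm49711. Mrps22, which shared no base with another gene, went from 18.4, 17.8 and 20.4 CPM to 26.7, 28.9 and 31.2 CPM (log2 0.62 ± 0.10, SE; edgeR adjusted p = 0.00164). None of the 3 overlapped between groups, and each stayed called without any 1 library. Mrps22, Mrps2, Mrps7, Mrps16 and Mrps34 are genes in which mutations are known to cause mitochondrial disease in people. Mrps7, of the head of the subunit, rose from 41.2, 43.6 and 44.6 CPM to 58.7, 58.9 and 66.3 CPM (log2 0.51). Mrps2 rose from 20.3, 22.1 and 27.0 CPM to 30.6, 30.9 and 40.2 CPM (log2 0.55), a call lost without control replicate 1 (edgeR adjusted p = 0.0521).

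Mrps12, of the decoding centre, rose at a log2 fold change of 0.40, a call lost without control replicate 1, control replicate 3 or DPCP replicate 3 (log2 0.34, 0.38 and 0.31). Mrps16 rose by 0.36, a call lost without control replicate 2, control replicate 3 or DPCP replicate 2 (log2 0.31, 0.37 and 0.30). Mrps27, a pentatricopeptide repeat protein, went from 17.2, 18.7 and 18.7 CPM to 24.1, 24.6 and 27.8 CPM (log2 0.49 ± 0.099, SE) and stayed called without any 1 library. Mrps15 (log2 0.21), Mrps17 (0.10), Mrps34 (0.30) and Mrps35 (0.00) were not called. Mrps35 gave 17.8, 21.8 and 21.5 CPM in control and 21.9, 19.0 and 20.5 CPM in DPCP libraries, the least change of all members.

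The 3 Mrps18 paralogues, relatives of 1 bacterial protein that occupy different places on the ribosome, had log2 fold changes of 0.22 (Mrps18a), 0.42 (Mrps18b) and 0.25 (Mrps18c). Mrps18b was called (edgeR adjusted p = 0.021), a call lost without DPCP replicate 2 (log2 0.40), without DPCP replicate 3 (0.40) and without control replicate 3 (0.36). Mrps18a had all DPCP libraries above the controls without a call, and Mrps18c overlapped. Their standard errors were 0.093 to 0.14, and the paralogues were not tested against each other. Mrps30, which like Mrps18a sits in the large subunit, gave 18.6, 15.6 and 15.8 CPM against 16.3, 19.3 and 18.2 CPM, with overlap.

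Levels per length differed over a wide range between members, and the order was nearly the same in both groups. Mean control RPKM ran from 2.36 (Mrps35) to 55.7 (Mrps21), and control and DPCP values of the 77 members correlated at a Spearman rho of 0.985 (Pearson r 0.983 on log2 values). These points share libraries and gene lengths and carry no p. In control skin Mrps21 (55.7 ± 2.59 RPKM, SD, n = 3) was followed by Mrpl54 (48.5 ± 1.70), Mrpl52 (33.7 ± 2.16) and Mrpl12 (32.4 ± 1.77). The first 2 lay apart by more than their spread, and Mrpl52 and Mrpl12 did not. In DPCP skin Mrpl54 (64.7 ± 5.27 RPKM) and Mrps21 (63.9 ± 4.06) were within their spread, and Mrpl12 was at 57.6 ± 6.89. Mrpl54 and Mrpl52 rose (log2 0.42 and 0.61), while Mrps21 was not called (log2 0.20; edgeR adjusted p = 0.0922). Of the small subunit, Mrps28 (24.3 ± 2.07 RPKM in control) and Mrps24 (22.6 ± 2.33) came next and lay within their spread. Mrps24 was called (log2 0.36), a call lost without control replicate 2, control replicate 3 or DPCP replicate 2 (log2 0.33, 0.32 and 0.30). The 3 lowest of each subunit over all libraries were Mrps35, Mrps30 (2.499 in control) and Mrps34 (2.94), and Mrpl33 (2.77), Mrpl47 (2.83) and Mrpl1 (3.81). Mrpl47 was called (log2 0.41), a call lost without control replicates 2 or 3 or DPCP replicates 2 or 3 (log2 0.34, 0.41, 0.37 and 0.41).

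The order depends on the length used. The deposited length joins all annotated exons of a gene, which for Mrpl33 came to 7326 bases. With the length of the principal transcript, an alternative added after the data were seen, ranks correlated with the first order at a rho of 0.73, Mrpl52 came first, and Mrpl33 moved up to rank 7 of 77. Fold changes do not depend on length. They did not follow level (rho 0.04), GC content of the exons (0.12) or deposited length (-0.04) over the 77 members.

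**Figure D4:**
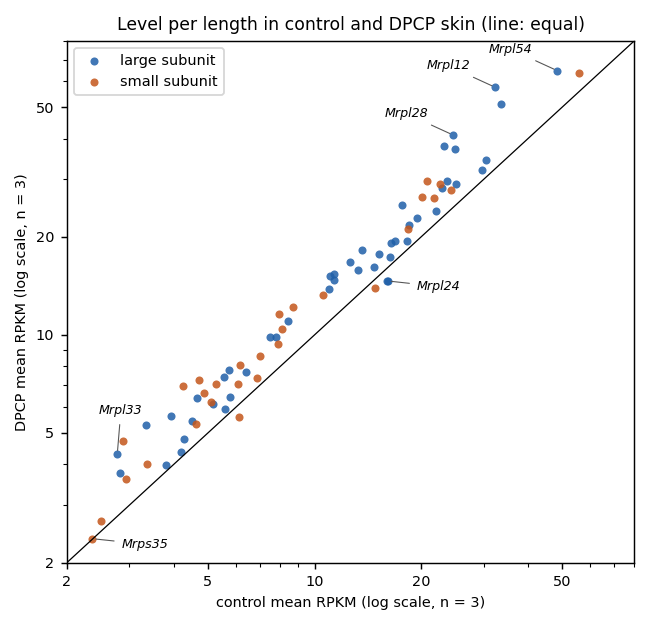
Mean RPKM in control (x) and DPCP (y) skin for the 77 members on log axes, with a line at equal levels and some genes named. Most points lie just above the line (73 of 77 fold changes are positive), and the order is nearly the same in both groups (rho 0.985).

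Replicates of a group were not alike across members. Control replicate 2 was the lowest control for 45 of the 77 members, and DPCP replicate 1 the lowest DPCP library for 39. DPCP replicate 2 stood apart in several values. CT010467.1, grouped with the ribosomal RNA genes in the alternative scaling, took 2.46% of the counts of that library. In the other libraries it took 0.167% to 0.489%. Lars2 and the sums of the neutrophil and macrophage markers were also highest in DPCP replicate 2. Without DPCP replicate 2, 30 members were called higher, and without any 1 library 30 to 38 were. Of all genes, 18.7% were called higher without DPCP replicate 2, and 18.7% to 21.6% without any 1 library. Of the 25 large subunit calls 19 and of the 15 small subunit calls 7 held without each library in turn.

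The members lie on 17 chromosomes, with 11 on chromosome 11 and 8 on chromosome 17. Mrpl46 and Mrps11, 1 of each subunit, start from a shared region on chromosome 7 on opposite strands. Mrpl46 went from 17.2, 15.0 and 14.7 CPM to 20.2, 22.7 and 21.6 CPM (log2 0.46 ± 0.11, SE), and Mrps11 from 11.1, 10.3 and 10.4 CPM to 13.5, 15.4 and 14.3 CPM (log2 0.44 ± 0.11, SE). Both rose without overlap between groups. These 2 were chosen for their position after their values were seen.

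Mitoribosomal proteins with other names gave the same direction, with fewer calls. Of 5, 2 were called higher and 0 lower by edgeR, by DESeq2 and at an unadjusted p under 0.05. The edgeR share was 40.0%, against 22.8% of all genes. Aurkaip1 rose from 52.9, 46.1 and 47.1 CPM to 63.8, 63.4 and 61.0 CPM (log2 0.36). Ptcd3 was called at a log2 fold change of 0.28, a call lost without control replicates 2 or 3 or DPCP replicates 2 or 3 (log2 0.26, 0.26, 0.26 and 0.27). Dap3, a GTP-binding protein of the small subunit (log2 0.09), Chchd1 (0.12) and Gadd45gip1 (0.23) were not called.

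Factors that drive the ribosome had calls in both directions. Of 13 translation factors measured, 4 were called higher and 1 lower (30.8% and 7.69%). Across all genes these shares were 22.8% and 23.3%. The median log2 fold change of the 13 was 0.15. Tufm, the elongation factor that brings aminoacyl-tRNA, rose from 50.4, 58.0 and 57.3 CPM to 76.3, 76.1 and 93.0 CPM (log2 0.57 ± 0.11, SE; edgeR adjusted p = 0.00298), and Gfm1, which moves the ribosome along, rose by 0.43. Tsfm, the exchange factor of Tufm (log2 0.39), and Mrrf, the recycling factor (0.28), were called, but each lost its call in 5 of the 6 fits without 1 library. Guf1, a GTPase related to bacterial LepA, fell from 27.7, 26.1 and 24.2 CPM to 20.6, 20.1 and 18.9 CPM (log2 -0.39), a call lost without control replicate 1 (log2 -0.33).

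Of 27 assembly factors, 4 were called higher and 3 lower, with a median of 0.08. These shares, 14.8% and 11.1%, were below the 22.8% and 23.3% of all genes. C1qbp, a matrix protein known to support mitochondrial translation, rose from 38.0, 38.2 and 41.4 CPM to 67.7, 67.9 and 71.2 CPM (log2 0.81 ± 0.079, SE; edgeR adjusted p = 0.000115), and the GTPase Noa1 rose by 0.50. Mettl17, a factor of small subunit assembly, fell from 16.4, 17.1 and 15.4 CPM to 10.8, 8.53 and 11.4 CPM (log2 -0.67 ± 0.14, SE). These 3 kept their calls without any 1 library, whereas Fastkd2 (log2 0.34) and Ddx28 (0.39) lost theirs in 4 and Mrm1 (-0.42) and Mterf3 (-0.28) in 5 of the 6 such fits.

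Of 20 mitochondrial aminoacyl-tRNA synthesis genes, 4 were called higher and 0 lower by edgeR and by DESeq2, with 5 and 1 at an unadjusted p under 0.05 and a median of 0.11. Sars2 rose by 0.66, a call lost without DPCP replicate 3 (log2 0.54), and Yars2 by 0.41, lost without control replicate 1, control replicate 2 or DPCP replicate 2 (log2 0.39, 0.39 and 0.35). Lars2 had the highest fold change of the list, with a size set largely by 1 library. It measured 198.6, 142.7 and 242.4 CPM in control and 358, 1847 and 394 CPM in DPCP libraries, so DPCP replicate 2 was far above the others, as it was for CT010467.1. Its log2 fold change of 2.16 ± 0.60 (SE) was 0.95 without DPCP replicate 2, where the call was kept and the other 2 DPCP libraries lay above every control. Its call was lost without control replicate 1 (log2 2.18) or control replicate 2 (1.98).

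Genes acting on mitochondrial RNA and DNA and regulators of biogenesis had calls in both directions. The shares called higher and lower were 18.8% and 12.5% in the first list and 18.2% and 27.3% in the second. Across all genes they were 22.8% and 23.3%. The first list held 16 genes of mitochondrial transcription and RNA stability together with Polg, a DNA polymerase, as 1 of the 16. In it 3 were called higher, Elac2 (log2 0.57), Supv3l1 (0.50) and Pnpt1 (0.49), and 2 lower, Hsd17b10 (-0.31) and Polg (-0.28). The call of Hsd17b10 was lost without control replicate 1 or DPCP replicate 3 (log2 -0.28 and -0.25). That of Polg was lost in 5 of the 6 fits without 1 library. Tfam, which packages mitochondrial DNA (log2 -0.08), and the polymerase Polrmt (0.18) were not called. Of 11 regulators, 2 were called higher and 3 lower. Ppargc1a, the coactivator of mitochondrial biogenesis abundant in muscle, fell from 8.99, 10.7 and 10.3 CPM to 2.68, 2.60 and 3.09 CPM (log2 -1.84 ± 0.15, SE; edgeR adjusted p = 5.37e-05). Its relative Pprc1, known as a growth-induced coactivator, rose from 29.9, 28.9 and 37.6 CPM to 47.7, 47.9 and 60.3 CPM (log2 0.69 ± 0.14, SE), and Ppargc1b did not differ by a call (log2 0.04). Gabpb1, the partner subunit in GABP, was called (log2 0.33), a call lost without DPCP replicate 2 (0.31), without DPCP replicate 3 (0.32) and without control replicate 1 (0.29), while the DNA-binding subunit Gabpa (0.08), Nrf1 (0.20), Esrra (0.18) and Myc (0.29; edgeR adjusted p = 0.0796) were not. E4f1 fell by 0.46, lost without control replicate 1 (-0.40), and Sp1 by 0.23, lost without any 1 library. The fall of Ppargc1a stood beside that of all 6 muscle markers, and the part of muscle in it was not tested.

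The messenger RNAs that this ribosome translates were not called higher. Of the 13 proteins encoded on mitochondrial DNA, 0 were called higher and 2 lower by edgeR, by DESeq2 and at an unadjusted p under 0.05. Their median was -0.15. The 15.4% called lower by edgeR stood beside 23.3% of all genes, of which 22.8% were called higher. mt-Nd4 fell by 0.35 on the log2 scale, and mt-Nd2 by 0.32, a call lost without any 1 library (edgeR adjusted p of 0.0501 to 0.0675). Genes of the mitochondrial chromosome took between 3.96% and 4.07% of the control counts and between 3.41% and 3.49% of the DPCP counts. These are levels of RNA and not of translation. Of 83 nuclear genes of oxidative phosphorylation, 20 were called higher and 10 lower (5 lower without control replicate 1), with a median of 0.07. With library totals alone 13 were higher and 14 lower, so which direction held more calls depended on the scaling. Atp5g3, of the rotor of ATP synthase, rose by 0.56, and Atp5mpl by 0.46. Cox6a2 fell by 1.49 and Cox8b by 1.65, both muscle forms of cytochrome oxidase subunits, beside the fall of the muscle markers.

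Of 14 general markers of mitochondria, 9 (64.3%) were called higher and 1 (7.14%) lower, against 22.8% and 23.3% of all genes. Their median was 0.44, and the 9 calls held without any 1 library. In a fit of genes that share no exon base with another gene alone, 4 of 8 were called higher and 2 lower, with a median of 0.22. Tomm40, the import pore, rose by 1.14 ± 0.14 (SE), and the matrix chaperones Hspe1 and Hspd1 by 0.91 and 0.88. The outer membrane channel Vdac1 fell by 0.34, and citrate synthase, Cs, was not called (log2 -0.14). Cytosolic ribosomal proteins were called higher in 26 of 77 and lower in 0 (35 and 0 with DESeq2 or at an unadjusted p under 0.05), with a median of 0.19, led by Rpl13a (log2 1.12) and Rpl41 (0.90). Many of these have near-identical pseudogenes, where reads are lost, so their levels are uncertain. That count was 12 to 27 without any 1 library, with the fewest without control replicate 3, and 15, 14 and 14 without control replicate 2, DPCP replicate 1 and DPCP replicate 2. With library totals alone it was 12. In the fit of genes that share no exon base with another gene, 5 of 40 cytosolic ribosomal genes were called higher, with a median of 0.15. Of all genes in that fit, 22.1% were called higher. No test between lists was made.

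**Figure D5:**
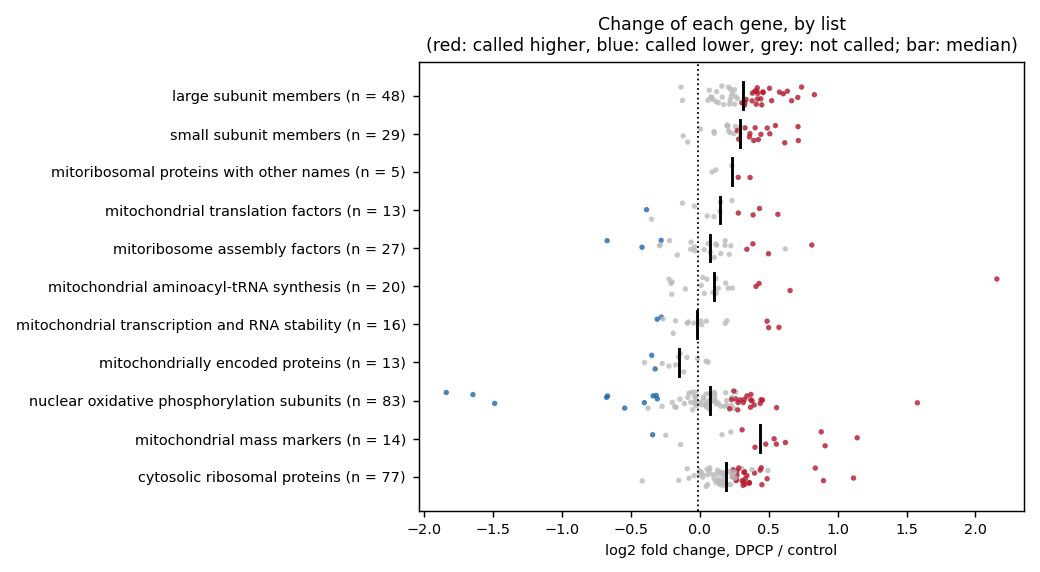
Log2 fold change of each gene in the 2 subunits and 9 related lists, 1 point a gene, red where called higher, blue where called lower and grey where not called, with a bar at the list's median and a dotted line at the median of all genes tested (-0.01). The medians of the large (0.32) and small (0.29) subunit lie above those of the translation factors (0.15), assembly factors (0.08) and mitochondrially encoded proteins (-0.15), and below that of the mitochondrial mass markers (0.44).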

How the data were processed

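Raw read counts per gene were deposited for 6 libraries. The authors counted reads with featureCounts 1.6.2 on the Ensembl annotation of GRCm38, release 102, per the file headers, with no option for strand, read pairs or reads of several alignments, so reads in bases shared by genes were not counted and antisense reads cannot be told apart. The submitters' processing notes also name mm10, HISAT2 2.2.1, Trimmomatic 0.36, DESeq2 1.34.0 and StringTie 2.2.1. The deposited table also gives each gene's exon length, per the file headers. Symbols and biotypes came from GENCODE M21, which matched 55227 rows. Shared exon bases were worked out from the exon positions given in the deposited table.

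From these counts, edgeR 4.0.16 (R 4.3.3; TMM, filterByExpr, quasi-likelihood F-test, no covariates) was fitted on the whole table, with Benjamini-Hochberg adjustment over 18259 genes and calls at an adjusted p under 0.05. TMM factors were 0.942 to 1.04. SE was taken from the fold change and the root of its F statistic. RPKM used the deposited length. The procedure was checked on simulated counts. The limit set by a count of 0 (3 counts per library, counting error only) lay between 0.0772 and 0.106 CPM. No replicate pair agreed within counting noise (smallest chi-square 20.2 per gene).

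The members and gene lists were chosen with earlier results of these data known. Named genes were, per subunit, the 5 called with the largest change in each direction, the 3 highest and 3 lowest in mean RPKM, the 3 uncalled with the least change, members with a stated role, and up to 3 called per list and direction (2 for oxidative phosphorylation and cytosolic ribosomal genes). Mrpl24, Mrps31, Mrpl46, Mrps11, Ddx28, Tsfm, Yars2 and Cs were named after their values were seen. A gene that the rule names is not reported here. Alternatives were other scalings and filters, DESeq2 1.42.0, a replicate block, genes with no shared exon base, subunits by structure, another gene length and leaving out each library.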

Additional observations from a re-analysis of the deposited data

How the results depend on the processing

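In every alternative run, 0 members of either subunit were called lower, and among the other scalings 70 to 73 of the 77 fold changes were positive. Members called higher numbered 44 with RLE size factors, 38 with upper-quartile factors, 29 with library totals alone, 40 with TMM computed without mitochondrial and rRNA genes, 39 with no filter beyond 10 counts, 44 at 1 CPM or more in every library of a group, and 40 with DESeq2. The share of all genes called higher moved too. In the same order of runs it was 23.5%, 21.4%, 19.3%, 22.8%, 18.3%, 26.2% and 23.6%. With library totals alone, the small subunit had 9 calls and a median log2 fold change of 0.21, the large subunit a median of 0.24, and all genes tested a median of -0.09. Among genes that share no exon base with another, refitted alone, 13 of 28 large and 6 of 18 small subunit genes were called, the small subunit median was 0.22, and the large-minus-small level rose by 0.10 more in DPCP skin than in control skin. Fewer genes were counted in that alternative, and 22.1% of all its genes were called higher. With subunits assigned by structure that difference was -0.019 and with names it was 0.014, so its sign is not fixed. Leaving out each library gave 21 to 22 large and 9 to 16 small subunit calls, medians of 0.28 to 0.32 and 0.28 to 0.33, and a large-minus-small difference of -0.0046 to 0.024. Same-numbered samples deviated together at correlations of 0.06, 0.05 and 0.18, and the other pairs of a control and a DPCP sample at -0.21 to 0.14. Deviations from a mean of 3 libraries depend on each other, so these values cannot settle whether same-numbered samples were paired. The fit with the replicate number as a block called 39 members, 24 large and 15 small, and called 23.3% of all genes higher. Members that lost their call without at least 1 library were Mrpl27, Mrpl34, Mrpl37, Mrpl39, Mrpl47, Mrpl57, Mrps2, Mrps5, Mrps12, Mrps14, Mrps16, Mrps18b, Mrps23 and Mrps24. The causes were not tested. With 3 libraries a group and standard errors near 0.098, members with log2 fold changes of 0.27 to 0.30 fell on either side of the threshold. No call, there or at smaller changes, does not show that a gene did not differ.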
